A study of Mus musculus with 24 samples.

Results

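The transcripts described here are 10 genes by which tuft cells of the intestine are recognised or built: *Pou2f3*, *1810046K07Rik*, *Gfi1b*, *Dclk1*, *Avil*, *Basp1*, *Sh2d6*, *Bmx*, *Ptprc* and *Ccdc28b*. They were taken by gene symbol, and all 10 were found among the 34471 genes that had a count in at least 1 library. Their expression was measured by poly(A) RNA-seq of whole distal jejunum in 24 mice, 3 biological replicates in each of 8 groups. Male and female wild type mice and Ptk6-/- mice, which lack the intracellular tyrosine kinase PTK6 through a germline deletion in every cell, received either regular water (control) or 100 mM succinate in the drinking water for 7 days. All mice were age-matched adults on the C57BL/6 background, bred in 1 colony and taken from different litters. The comparisons asked whether succinate raised these transcripts, and whether the response differed with *Ptk6* and with sex.

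Tuft cells are rare chemosensory epithelial cells that carry a brush of long microvilli. Succinate, a metabolite made by intestinal microbes and protists, is sensed through the receptor SUCNR1 and a taste-like signalling cascade, after which tuft cells release IL-25 and take part in a type 2 immune circuit that raises the number of tuft and goblet cells. The transcription factor POU2F3 is needed for tuft cells to form. In bulk tissue, a lower transcript level from fewer cells and one from less RNA per cell cannot be told apart.

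Libraries held between 8080320 and 52824700 counts, with a median of 43017700. *Ptk6* itself had 284 to 2405 counts in the 12 wild type libraries and 7 to 61 counts in the 12 Ptk6-/- libraries. The epithelial markers (8 genes) summed to 7616 to 19595 CPM (read counts scaled to a common library size) over all libraries, and none of them was at 0 in a whole group. In 3 libraries the content stood apart. The 18S ribosomal transcript *Rn18s-rs5* took 51.2% of counts in wild type male control replicate 1 and 29.7% in Ptk6-/- male succinate replicate 1, against at most 4.49% in the other 22. Wild type female succinate replicate 2 held heart transcripts, with 15573 CPM summed over 7 heart markers. Some of the results that use these libraries are also given without them, and the rest include them. The replicates of a group were labelled as separate biological samples.

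Expression of each gene is given in CPM, scaled by the trimmed mean of M values (TMM). Genes were compared with each other in FPKM, which accounts for gene length and in which the 18S reads count toward the library, so that the 18S-rich libraries read low. A gene was called when its Benjamini-Hochberg adjusted p in edgeR's quasi-likelihood test, taken over all genes tested, was under 0.05 and the fold change was at least 2 (no fold limit for interactions).

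In the 12 control mice, *Basp1* had the highest level per length, 6.35 ± 2.13 FPKM (SD, n = 12). *Sh2d6* followed at 2.43 ± 0.887 FPKM and *1810046K07Rik* at 1.75 ± 0.835 FPKM. *Ccdc28b* was at 1.58 ± 0.488, *Avil* at 1.39 ± 0.369 and *Ptprc* at 1.18 ± 0.435 FPKM. The lowest 4 were *Pou2f3* at 0.262 ± 0.110, *Bmx* at 0.246 ± 0.108, *Dclk1* at 0.202 ± 0.0592 and *Gfi1b* at 0.120 ± 0.0735 FPKM. *Basp1* exceeded *Sh2d6*, and *Ptprc* exceeded *Pou2f3*, in 12 of 12 control libraries. Neighbours within the lowest 4 kept their order in only 7 or 8 of 12 libraries, as did *Ccdc28b* and *Avil* (7 of 12), so their order was not resolved. After succinate in females, the first place changed hands. *Sh2d6* was above *Basp1* in 5 of 6 female succinate libraries and in 0 of 12 controls, at means of 24.4 ± 12.2 and 13.2 ± 3.32 FPKM (SD, n = 6). *Avil*, at 10.2 ± 4.38 FPKM, was then above *Ccdc28b* in 6 of 6, compared with 5 of 12 controls. *Pou2f3* stayed below *1810046K07Rik* in all 12 controls and all 6 female succinate libraries.

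**Figure D1:**
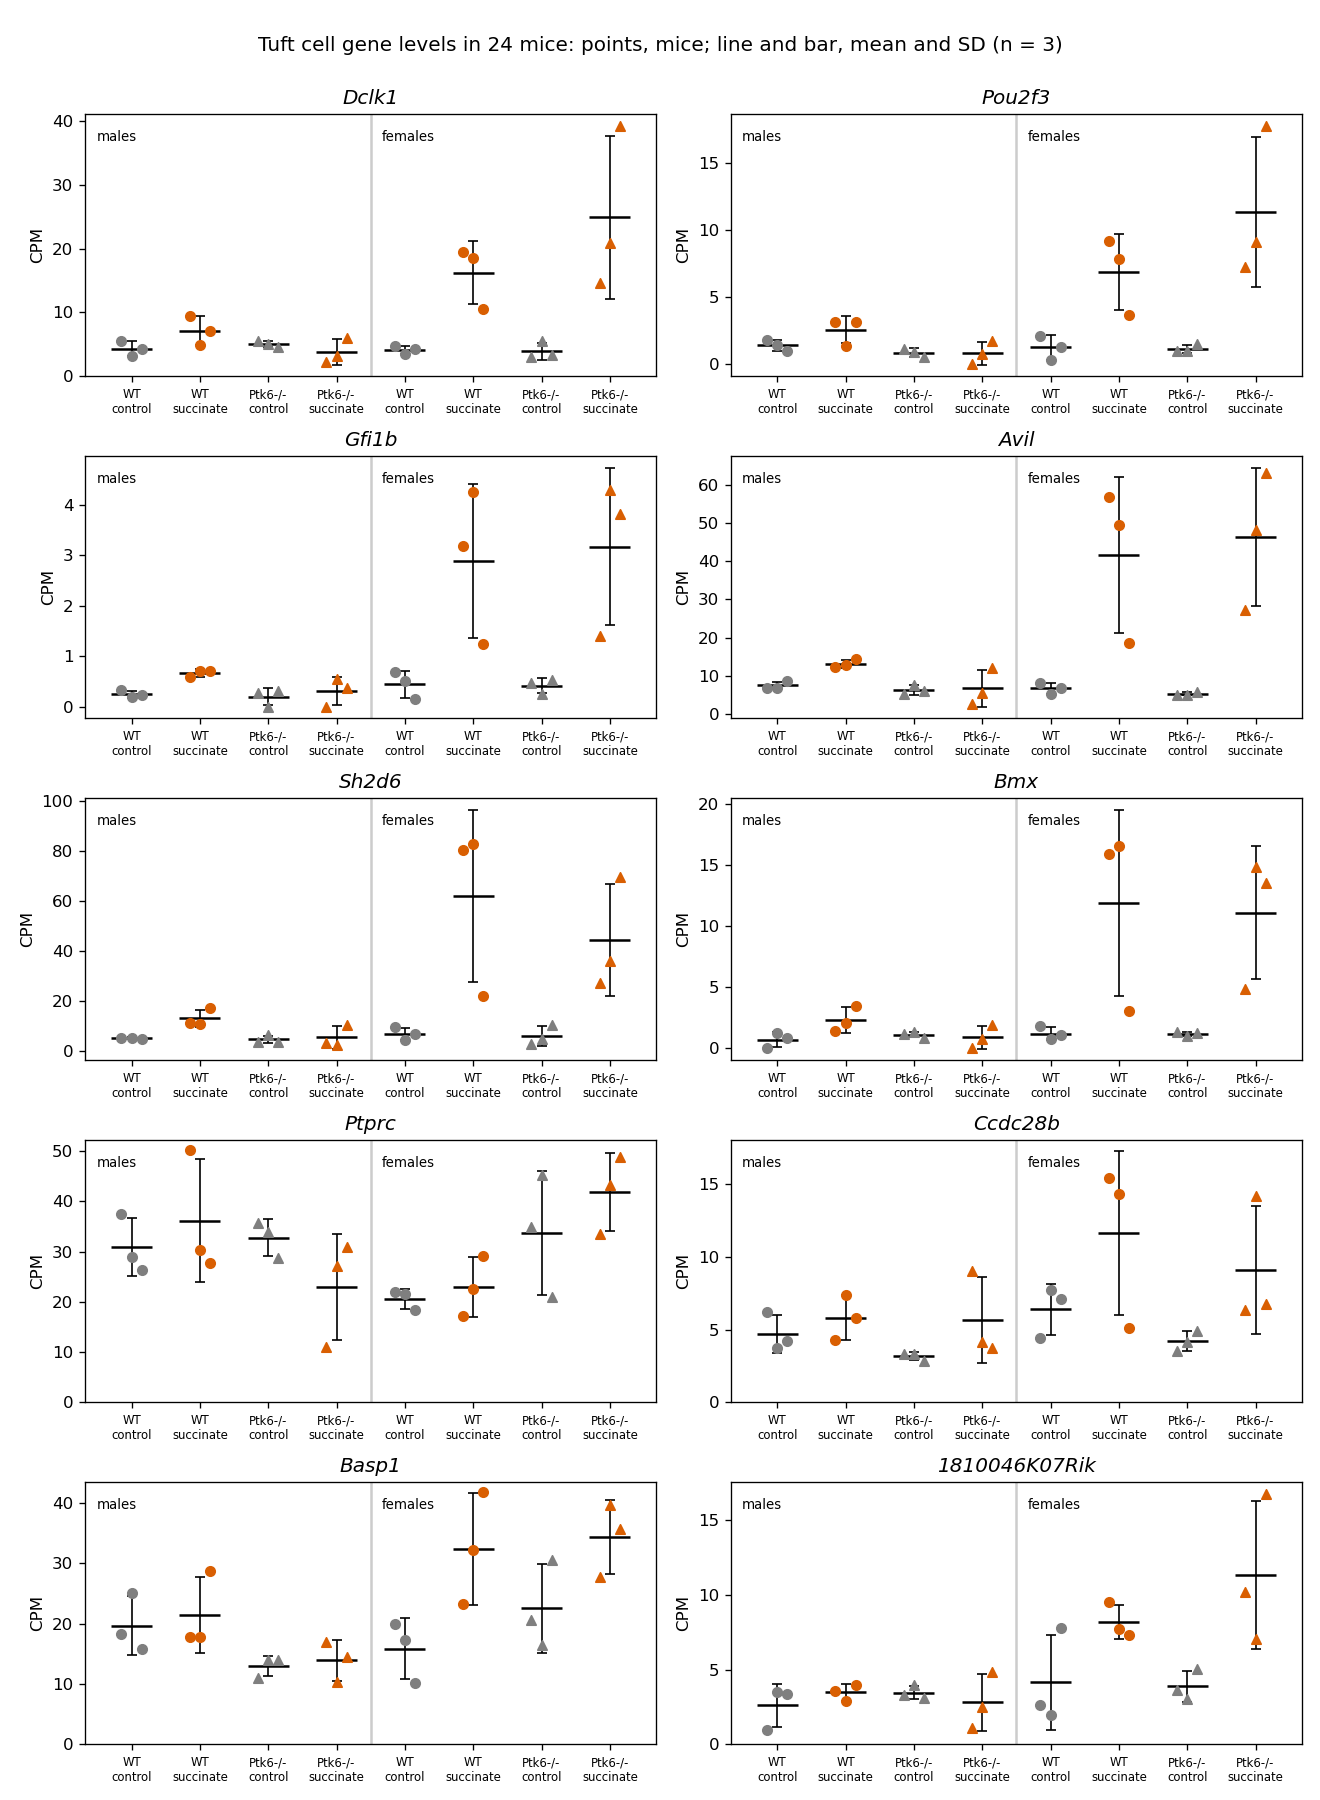
CPM of each of the 10 genes in 24 mice, males left and females right of the grey line. Circles are wild type mice, triangles Ptk6-/- mice, grey points controls and orange points succinate-treated mice, and black lines and bars are the mean and SD of 3 mice. For *Dclk1*, *Pou2f3*, *Gfi1b*, *Avil*, *Sh2d6* and *Bmx* all 6 succinate-treated females lie above all 12 controls, while *Ptprc* shows 1 of 6 above them.

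Among the transcriptional regulators, *Pou2f3* (ENSMUSG00000032015, GRCm39 chr9:43035234-43121666, minus strand) encodes the POU-domain factor that specifies tuft cells. *1810046K07Rik* (ENSMUSG00000036027, chr9:51200986-51240217, minus strand) is the older symbol of *Pou2af2*, whose protein OCA-T1 is a coactivator of POU2F3. *Gfi1b* (ENSMUSG00000026815, chr2:28499462-28511994, minus strand) encodes a zinc-finger repressor also used in erythroid cells and megakaryocytes. No other listed gene overlapped these loci.

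POU factors bind an octamer, so RefSeq promoter windows (GRCm38.p6, 250 bases before to 50 after each start) were searched for the letters ATGCAAAT and, on the other strand, ATTTGCAT. They occurred in 570 of 32851 windows (1.74%). Of the 10 genes, 8 had entries in the promoter table, with 11 windows in all. The octamer was in 1 of these 11, at the start of *1810046K07Rik*, where it lay once on each strand, starting 86 and 55 bases before the start. This window is shown because it belongs to the gene of POU2F3's own coactivator. Capitals mark the octamers in this sequence, chr9:51328869-51329168, minus strand, read 5′ to 3′.
1810046K07Rik: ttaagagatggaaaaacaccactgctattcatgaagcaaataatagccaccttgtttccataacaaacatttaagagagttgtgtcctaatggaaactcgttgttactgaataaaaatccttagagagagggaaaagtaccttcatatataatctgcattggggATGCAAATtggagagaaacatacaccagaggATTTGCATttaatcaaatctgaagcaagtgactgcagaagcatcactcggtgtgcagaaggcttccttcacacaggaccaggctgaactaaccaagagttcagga
The window of *Avil* is shown beside it as that of the gene with the smallest adjusted p among the 10 in Ptk6-/- females and in the average over groups. It held no full octamer, and 2 matches to its first 7 letters (ATGCAAA or TTTGCAT, in capitals), starting 115 and 15 bases before the start. That shorter search was made after the full octamer had been searched. The 7 letters were in 1520 of all windows (4.63%) and in 2 of the 11 windows of these genes, the 2 shown here. The sequence is chr10:127000459-127000758, plus strand, in the same build.
Avil: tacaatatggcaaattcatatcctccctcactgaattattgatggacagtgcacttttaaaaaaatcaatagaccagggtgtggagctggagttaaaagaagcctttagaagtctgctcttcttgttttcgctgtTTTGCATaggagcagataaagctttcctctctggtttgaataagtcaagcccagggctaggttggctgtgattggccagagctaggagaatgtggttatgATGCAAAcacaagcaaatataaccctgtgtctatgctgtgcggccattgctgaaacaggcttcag
Such a match is a description of the letters and not a binding site. Among the other tuft cell genes, 4 of 35 with a window held the octamer.

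*Pou2f3* was at 2.10, 0.302 and 1.303 CPM in the wild type female controls and at 9.16, 7.82 and 3.68 CPM after succinate. The Ptk6-/- females were at 0.968, 0.956 and 1.47 CPM in controls and at 7.23, 9.14 and 17.8 CPM after succinate. The treated and control females did not overlap in either genotype, and succinate replicate 3 was the lowest treated wild type female but the highest treated Ptk6-/- female. The log2 fold change was 2.50 (SE 0.69, edgeR adjusted p = 0.550) in wild type and 3.31 (SE 0.45, adjusted p = 0.0844) in Ptk6-/- females. In wild type males *Pou2f3* was at 1.78, 1.44 and 0.992 CPM in controls and at 3.13, 1.38 and 3.16 CPM after succinate. In Ptk6-/- males it was at 1.16, 0.876 and 0.545 CPM in controls and at 0, 0.740 and 1.69 CPM after succinate. Male groups overlapped in both genotypes. The value of 0 belongs to the shallow replicate 1, in which 3 counts equal 0.823 CPM, so a level below that was not detectable there.

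The levels of *Gfi1b* were 0.678, 0.497 and 0.155 CPM in wild type female controls and 3.19, 4.25 and 1.24 CPM after succinate. Ptk6-/- females had 0.472, 0.255 and 0.520 CPM in controls and 1.40, 4.30 and 3.82 CPM after succinate. Treated females were again above their controls without overlap, with log2 fold changes of 2.71 (SE 0.69) and 2.91 (SE 0.57), and edgeR adjusted p-values of 0.511 and 0.222. It was also without overlap in wild type males, at 0.324, 0.191 and 0.223 CPM in controls against 0.580, 0.708 and 0.699 CPM after succinate. In Ptk6-/- males 1 control and 1 treated library had no count.
Markers of erythroid cells and megakaryocytes (9 genes), which also use *Gfi1b*, were summed. In females they lay between 94.2 and 198 CPM in treated and 139 and 216 CPM in control wild type females, and between 20.6 and 83.5 CPM in treated and 39.2 and 247 CPM in control Ptk6-/- females. Of 7 markers tested, 2 were higher in either genotype. In wild type males the sums were 58.9, 320 and 314 CPM after succinate and 132, 106 and 106 CPM in controls, so 2 of 3 treated mice were above the controls, and 6 of 7 markers were higher. Ptk6-/- males had 94.3 to 960 CPM after succinate and 66.7 to 95.4 CPM in controls, the highest in the 18S-rich library. The part of these cells in the *Gfi1b* values was not tested.

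*1810046K07Rik* was at 2.63, 1.99 and 7.82 CPM in wild type female controls and at 9.50, 7.75 and 7.31 CPM after succinate. A single high control made these groups overlap. For the Ptk6-/- females, 3.64, 3.02 and 5.02 CPM in controls stood against 10.2, 7.08 and 16.7 CPM after succinate, with no overlap. Its log2 fold changes, 1.00 (SE 0.53, edgeR adjusted p = 0.688) and 1.52 (SE 0.40, adjusted p = 0.339), stood beside 2.50 and 3.31 for *Pou2f3*, and the difference between the genes was not tested. Without the high control, replicate 3, the value in wild type females was 1.86 (adjusted p = 0.933). Males stayed between 0.971 and 4.81 CPM in all 4 groups.

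Of the structural genes, *Dclk1* (ENSMUSG00000027797, chr3:55149785-55446489, plus strand) encodes a microtubule-associated doublecortin-like kinase and is the most used tuft cell marker. *Avil* (ENSMUSG00000025432, chr10:126836578-126856863, plus strand) encodes advillin, an actin-binding protein of the gelsolin and villin family, also present in sensory neurons. *Basp1* (ENSMUSG00000045763, chr15:25363363-25413850, minus strand) encodes a membrane-attached protein abundant in neurons. *Dclk1* shares its locus with 4 predicted genes on the same strand, none above 101 counts. *Avil* overlaps *Tsfm* on the other strand, and whether the counting used strand was not given in the sources used here. *Tsfm* had a log2 fold change of 0.56 (SE 0.20, edgeR adjusted p = 0.199) for succinate averaged over the 4 sex and genotype groups, against 1.67 for *Avil*. Its value in Ptk6-/- females was 0.997 (SE 0.37, adjusted p = 0.435) against 3.09 for *Avil*, and in Ptk6-/- males 0.60 (SE 0.37, adjusted p = 0.627) against 0.16. The part of *Tsfm* reads in the *Avil* values was not tested.

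*Avil* was at 8.16, 5.25 and 6.93 CPM in wild type female controls and at 56.8, 49.5 and 18.5 CPM after succinate. Levels in Ptk6-/- females were 5.17, 5.03 and 5.83 CPM in controls and 27.2, 48.2 and 63.2 CPM after succinate. Every treated female was above every control. *Avil* rose 8.52-fold in Ptk6-/- females (log2 3.09, SE 0.37, edgeR adjusted p = 0.0494), and this was the only one of the 10 genes called in a single sex and genotype by the main test. The call was lost when either of succinate replicates 2 and 3 or any control was left out (adjusted p from 0.126 to 0.310), and without succinate replicate 1, the lowest of its group for 9 of the 10 genes, 2 of the 10 were called, *Avil* and *Bmx*, where 0.154% of all genes were. In wild type females it was 6.22-fold higher (log2 2.64, SE 0.45, adjusted p = 0.223). Wild type males went from 6.96, 6.91 and 8.73 CPM to 12.2, 12.9 and 14.4 CPM, a tight shift with no overlap (log2 0.80, SE 0.22, adjusted p = 0.947). Ptk6-/- males had 5.36, 7.68 and 5.97 CPM in controls and 2.74, 5.61 and 12 CPM after succinate, so treated mice lay on both sides of the controls. The value below the controls, 2.74 CPM, was 10 counts in the 18S-rich replicate 1. The log2 fold change of 0.16 (SE 0.46) was 0.45 (SE 0.32) without it.

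*Dclk1* was between 2.98 and 5.45 CPM in all 12 controls. Treated females reached 19.5, 18.6 and 10.5 CPM in the wild type and 14.7, 20.9 and 39.2 CPM in Ptk6-/- mice. All 6 exceeded every control. This was a log2 fold change of 1.99 (SE 0.33, edgeR adjusted p = 0.218) in wild type and 2.67 (SE 0.45, adjusted p = 0.148) in Ptk6-/- females. Treated wild type males were at 9.34, 4.86 and 7.11 CPM and treated Ptk6-/- males at 2.19, 3.13 and 5.99 CPM. The log2 fold change was 0.73 (SE 0.35) in wild type males, or 0.97 (SE 0.38) without the 18S-rich control. In Ptk6-/- males it was −0.34 (SE 0.38, 95% interval −1.23 to 0.55, edgeR adjusted p = 0.757), or −0.16 (SE 0.29) without the 18S-rich treated library.

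*Basp1* had smaller differences. It was at 20.0, 17.3 and 10.2 CPM in wild type female controls and at 23.2, 32.2 and 41.8 CPM after succinate, without overlap (log2 1.05, SE 0.34, edgeR adjusted p = 0.617). In Ptk6-/- females, controls at 20.6, 16.4 and 30.6 CPM overlapped with treated mice at 27.7, 39.6 and 35.8 CPM (log2 0.58, SE 0.31, adjusted p = 0.527). Succinate replicate 3, the lowest treated wild type female for 8 of the 10 genes, was the highest for *Basp1*.
Enteric neuron and glia markers (10 genes) were read beside *Basp1* and *Avil*. In females they summed to 44.5 to 67.0 CPM in treated and 52.3 to 73.1 CPM in control wild type mice, and to 31.6 to 52.7 and 30.3 to 69.9 CPM in Ptk6-/- mice, so treated females were not above the range of their controls. In wild type males all 10 of these markers were higher after succinate, at 60.9 to 120 CPM against 30.4 to 35.6 CPM, and their part in the male *Avil* difference was not tested.

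The signalling genes were *Sh2d6* (ENSMUSG00000052631, chr6:72490624-72498690, minus strand), which encodes an SH2-domain adaptor, and *Bmx* (ENSMUSG00000031377, chrX:162975838-163041189, minus strand), a TEC-family tyrosine kinase also found in endothelial and myeloid cells. *Ptprc* (ENSMUSG00000026395, chr1:137990599-138103044, minus strand) encodes CD45, a tyrosine phosphatase of leukocytes that has also been described on some tuft cells, and *A130071D04Rik*, with up to 231 counts, lies within its locus on the same strand. *Ccdc28b* (ENSMUSG00000028795, chr4:129513067-129517740, minus strand) encodes a coiled-coil protein linked to cilia.

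*Sh2d6* was at 9.52, 4.66 and 7.02 CPM in wild type female controls and at 80.5, 82.9 and 22.2 CPM after succinate. In Ptk6-/- females it was at 3.05, 4.91 and 10.4 CPM in controls and at 27.3, 36.1 and 69.7 CPM after succinate. The groups did not overlap, and the log2 fold changes were 3.15 (SE 0.55, edgeR adjusted p = 0.232) and 2.84 (SE 0.56, adjusted p = 0.219). Wild type males went from 5.42, 5.51 and 4.94 CPM to 11.2, 11.05 and 17.1 CPM, without overlap. With a log2 fold change of 1.305 (SE 0.27, unadjusted p = 0.00126, edgeR adjusted p = 0.947) this was the smallest unadjusted p among the 10 genes in wild type males. Treated Ptk6-/- males, at 3.29, 2.70 and 10.7 CPM, surrounded their controls at 3.82, 6.45 and 3.88 CPM.

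*Bmx* had the largest log2 fold change in wild type females, 3.38 (SE 0.70, edgeR adjusted p = 0.379). Controls were at 1.75, 0.691 and 1.02 CPM and treated mice at 15.9, 16.6 and 3.04 CPM. Ptk6-/- females were at 1.25, 0.935 and 1.21 CPM in controls and at 4.80, 14.9 and 13.6 CPM after succinate (log2 3.27, SE 0.49, adjusted p = 0.113). Neither genotype overlapped in females. In males *Bmx* reached at most 3.45 CPM, in a treated wild type mouse, and it had no count in wild type male control replicate 1 and Ptk6-/- male succinate replicate 1, both rich in 18S. Its log2 fold change in wild type males was 1.69 (SE 0.84), and 1.23 (SE 0.52) without that control.
Endothelial markers (9 genes) summed to 119 to 427 CPM in treated and 113 to 123 CPM in control wild type females, and all 9 were higher after succinate. The 427 CPM belonged to the library with heart transcripts, without which the *Bmx* log2 fold change was 3.08 (SE 0.73). In Ptk6-/- females the same markers summed to 121 to 146 CPM in treated and 110 to 127 CPM in control mice, and 6 of the 9 were higher. The part of these cells in the *Bmx* values was not tested.

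*Ptprc* was at 21.9, 21.6 and 18.4 CPM in wild type female controls and at 17.2, 22.5 and 29.2 CPM after succinate, and at 34.8, 45.3 and 20.9 CPM and 33.6, 43.3 and 48.9 CPM in the same groups of Ptk6-/- females. The groups overlapped in both, and the log2 fold changes were 0.17 (SE 0.27, 95% interval −0.45 to 0.79) and 0.29 (SE 0.33, 95% interval −0.48 to 1.06). In succinate-treated females it was higher in every Ptk6-/- mouse than in every wild type mouse (log2 0.87, SE 0.30, unadjusted p = 0.0195, edgeR adjusted p = 0.931). Leukocyte markers (20 genes, *Ptprc* not among them) summed to 234 to 329 CPM in these treated Ptk6-/- and 253 to 304 CPM in the treated wild type females. Over 24 libraries the *Ptprc* level had a Pearson correlation of 0.15 with that sum, given as a description. With the sum of the erythroid and megakaryocyte markers it was −0.78, and the part of those cells in the *Ptprc* values was not tested.

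*Ccdc28b* was at 4.42, 7.71 and 7.09 CPM in wild type female controls and at 15.4, 14.3 and 5.15 CPM after succinate. Replicate 3 again lay apart from the other treated mice, here within the range of controls. In Ptk6-/- females, 3.54, 4.16 and 4.91 CPM in controls stood against 6.39, 14.2 and 6.78 CPM, without overlap (log2 1.10, SE 0.39, edgeR adjusted p = 0.420). In Ptk6-/- males it was the only member without overlap, at 3.30, 3.34 and 2.85 CPM in controls and 9.05, 4.16 and 3.73 CPM after succinate. The 9.05 CPM came from the 18S-rich replicate 1, and the log2 fold change of 0.82 (SE 0.44) was 0.29 (SE 0.23) without it.

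**Figure D2:**
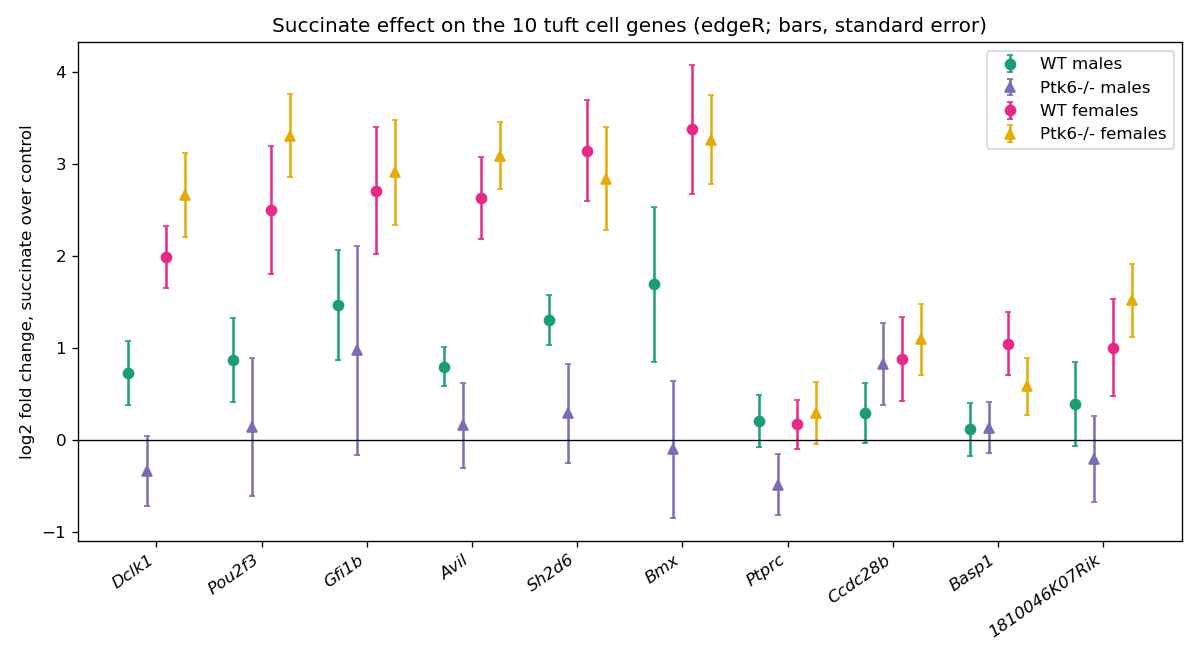
Log2 fold change of succinate over control for each gene in the 4 sex and genotype groups, from edgeR, with bars of 1 standard error. *Dclk1*, *Pou2f3*, *Gfi1b*, *Avil*, *Sh2d6* and *Bmx* lie between 1.99 and 3.38 in females and between −0.34 and 1.69 in males, and *Ptprc* lies near 0 in the wild type females at 0.17.

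Succinate compared with control was tested first within each sex and genotype. In Ptk6-/- females 1 of 10 genes was called, where 17 of 19334 genes tested (0.0879%) were called, and all 10 had a positive log2 fold change, with a median of 2.75 against −0.04 over all genes tested. DESeq2 called 7 where it called 2.24% of all genes, and limma-voom with sample weights called 5 where it called 1.22%. In these mice 8 of the 10 were without overlap and higher, a state shared by 11.2% of all genes. In wild type females edgeR called 0 of 10 and 0 of 18872 genes (0%), while 7 had an unadjusted p under 0.05. DESeq2 called 6 where it called 1.37% of all genes, and limma-voom 3 where it called 0.26%. All 10 were higher, with a median log2 fold change of 2.24 (2.12 without the library with heart transcripts) against 0.03 over all genes, and 7 of 10 were without overlap, against 5.96% of all genes. Without wild type female succinate replicate 3, edgeR called 4 of the 10 (*Dclk1*, *Avil*, *Sh2d6* and *Bmx*) where 597 of 18493 genes (3.23%) were called.

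Markers of other cells also differed in these females. The 8 epithelial markers summed to 7616 to 13861 CPM in treated and 16696 to 19595 CPM in control wild type females, and to 9399 to 11205 and 10955 to 16218 CPM in Ptk6-/- females. Enterocyte markers (7 genes) were lower without overlap in both, at 25697 to 34323 against 40825 to 47873 CPM in wild type and 15471 to 18108 against 18514 to 51944 CPM in Ptk6-/- females. Smooth muscle markers (6 genes) were at 7649, 7441 and 3859 CPM in treated and 3225 to 4122 CPM in control wild type females, and at 3695 to 5150 against 2057 to 4643 CPM in Ptk6-/- females. Paneth cell markers (5 genes) were at 16367, 22528 and 8536 CPM in treated and at 10593, 4368 and 8238 CPM in control Ptk6-/- females, with overlap, and 4 of the 5 were higher. In wild type females they were at 19011, 6477 and 6630 CPM against 8020 to 13639 CPM. Goblet cell markers (7 genes) spanned 10339 to 16005 against 14637 to 16376 CPM in wild type and 9632 to 11065 against 9481 to 25286 CPM in Ptk6-/- females, and enteroendocrine markers (8 genes) overlapped in both. None of these list genes was called, and their part in the results of the 10 genes was not tested.

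In wild type males edgeR called 0 of 10 and 0 of 19183 genes (0%). At an unadjusted p under 0.05 there were 3 members, *Gfi1b*, *Avil* and *Sh2d6*, and DESeq2 called 1 (*Sh2d6*) where it called 0.245% of all genes. Limma-voom called 2 (*Gfi1b* and *Sh2d6*) where it called 8.11%, and edgeR without succinate replicate 1 called 1 (*Sh2d6*, log2 1.38, adjusted p = 0.0151) where it called 5.8%, so neither share stands far from that of all genes. All 10 were higher, with a median log2 fold change of 0.76 (0.875 without the 18S-rich control) against 0.02 over all genes, and 4 of 10 were without overlap, against 4.62% of all genes. The leukocyte markers summed to 405, 485 and 407 CPM after succinate and to 362, 290 and 274 CPM in controls, without overlap, with 13 of 20 higher, and their part in these results was not tested. In Ptk6-/- males edgeR called 0 of 10 and 0 of 18966 genes (0%), with 0 members at an unadjusted p under 0.05 and 0 called by DESeq2 and limma-voom. There 6 were higher and 4 lower, the median was 0.14, and 1 of 10 was without overlap against 11% of all genes. Without the 18S-rich replicate 1, which was the lowest of its group for 7 of the 10 genes, 7 were higher, the median was 0.25 and again 0 were called.

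Averaged over the 4 sex and genotype groups, with all 24 libraries in the fit, 6 of the 10 genes were called, where 158 of 21694 genes tested (0.728%) were called. *Avil* rose 3.19-fold (log2 1.67, SE 0.21, edgeR adjusted p = 0.000117), *Sh2d6* 3.73-fold (log2 1.898, SE 0.27, adjusted p = 0.000719) and *Dclk1* 2.40-fold (log2 1.26, SE 0.20, adjusted p = 0.00151). *Pou2f3* rose 3.29-fold, *Bmx* 4.18-fold and *Gfi1b* 4.06-fold, with adjusted p-values of 0.00863, 0.00863 and 0.0165. The same 6 were called without the 3 libraries that stood apart, where 91 of 21526 genes were. The other 4 were not called. *Ccdc28b* had a log2 value of 0.77 (SE 0.21, adjusted p = 0.0853), *1810046K07Rik* 0.67 (SE 0.26, adjusted p = 0.211), *Basp1* 0.46 (SE 0.15, adjusted p = 0.169) and *Ptprc* 0.05 (SE 0.17, 95% interval −0.29 to 0.40, adjusted p = 0.922).

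The difference between the sexes in the response to succinate was tested as an interaction. In Ptk6-/- mice, females exceeded males by 3.34 for *Bmx* (SE 0.88), 3.15 for *Pou2f3* (SE 0.86), 3.01 for *Dclk1* (SE 0.61) and 2.94 for *Avil* (SE 0.60) on the log2 scale. EdgeR called 0 of 10 and 0 of 20471 genes (0%), with a smallest adjusted p among the members of 0.235. At an unadjusted p under 0.05 there were 6 members, and DESeq2 called 4 (*Dclk1*, *Pou2f3*, *Avil* and *Bmx*) where it called 0.879% of all genes. Without the 18S-rich library these 4 values were 3.03, 2.84, 2.81 and 2.63 in the order *Bmx*, *Pou2f3*, *Dclk1* and *Avil*. In wild type mice the differences were smaller for most of the 10 genes, up to 1.85 for *Sh2d6* (SE 0.61) and 1.84 for *Avil* (SE 0.50). Without the libraries that stood apart *Sh2d6* was at 1.56 (SE 0.68). EdgeR called 0 of 10 and 0 of 20415 genes (0%), with 3 members at an unadjusted p under 0.05 and 0 called by DESeq2. Without succinate replicate 3 of the females, edgeR called *Avil* (log2 2.20, adjusted p = 0.0197) and 0.291% of all genes. The difference was larger in wild type than in Ptk6-/- mice for *Basp1* (0.94 against 0.47) and *Ccdc28b* (0.59 against 0.29). The test of this gap between genotypes, given below, called 0 of 10. A test of the interaction averaged over the genotypes was added after these values had been seen. It called *Avil* (log2 2.38, SE 0.41) and *Dclk1* (log2 2.13, SE 0.39), both at an edgeR adjusted p of 0.0383, where 16 of 21694 genes (0.0738%) were called. Without the 3 libraries that stood apart neither was called, at 2.19 and 1.88 with adjusted p-values of 0.168 and 0.175.

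Ptk6-/- and wild type mice were then compared. In control males 0 of 10 were called by edgeR, where 142 of 19218 genes (0.739%) were, and *Basp1* was the only member with an unadjusted p under 0.05. It was lower in Ptk6-/- males without overlap, at 11.02, 13.9 and 14.01 CPM against 18.3, 25.1 and 15.8 CPM (log2 −0.62, SE 0.20, adjusted p = 0.1002). *Ccdc28b* was the other member without overlap, so 2 of 10 were, against 31.4% of all genes. In control females 0 of 10 were called, where 3 of 19035 genes (0.0158%) were, 0 of 10 were without overlap against 18.9% of all genes, and *Ptprc* alone had an unadjusted p under 0.05 (log2 0.75, SE 0.31, edgeR adjusted p = 0.436). Leaving out Ptk6-/- female control replicate 3 gave 1.01 for *Ptprc* with an adjusted p of 0.0275, in a setting where 1808 of 18731 genes (9.65%) were called, close to the share of 1 in 10 members. In succinate-treated males all 10 had negative log2 values, with a median of −0.83, and edgeR called 0 of 10 and 0 of 18904 genes (0%), with 0 members at an unadjusted p under 0.05. *Gfi1b*, *Avil*, *Sh2d6* and *Basp1* were lower without overlap, 4 of 10 against 8.66% of all genes. Without the 18S-rich library 9 were lower, with a median of −0.65. Leukocyte markers summed to 364, 223 and 289 CPM in these Ptk6-/- males and to 405, 485 and 407 CPM in the wild type males, with 15 of 20 lower. Enteric neuron and glia markers summed to 53.2, 37.3 and 39.0 CPM against 62.8, 60.9 and 120 CPM, with 10 of 10 lower. Both sums were without overlap, and their part in the differences of the 10 genes was not tested. In succinate-treated females edgeR called 0 of 10 and 0 of 19180 genes (0%), *Ptprc* alone had an unadjusted p under 0.05, and 1 of 10 (*Ptprc*) was without overlap against 10.8% of all genes. DESeq2 and limma-voom called 0 members in these 4 comparisons.

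The genotype by succinate interaction asks whether the loss of *Ptk6* altered the response itself. In males the log2 differences, Ptk6-/- minus wild type, ran from −1.80 for *Bmx* (SE 1.23) to 0.53 for *Ccdc28b* (SE 0.55), with 8 of 10 below 0 and a median of −0.65. Without the 18S-rich libraries *Bmx* was at −0.998 (SE 0.73) and *Ccdc28b* at −0.27 (SE 0.36), 9 of 10 were below 0 and the median was −0.54. *Dclk1* was at −1.06 (SE 0.53, 95% interval −2.21 to 0.10, unadjusted p = 0.0701, edgeR adjusted p = 0.993), and at −1.12 (SE 0.50, unadjusted p = 0.0481, adjusted p = 0.9998) without those libraries. In females they ran from −0.43 for *Basp1* (SE 0.46) to 0.84 for *Pou2f3* (SE 0.83), with a median of 0.23. With all libraries edgeR called 0 of 10 in either sex, with 0 at an unadjusted p under 0.05, and 0 of 20340 genes in males (0%) and 0 of 20531 in females (0%). The 95% interval for *Dclk1* in females, −0.50 to 1.91, also held 0. The difference between the 2 sexes in this interaction called 0 of 10 and 0 of 21694 genes (0%), and only *Dclk1*, at 1.80 (SE 0.78, adjusted p = 0.817), had an unadjusted p under 0.05. DESeq2 and limma-voom called 0 members in all 3.

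**Figure D3:**
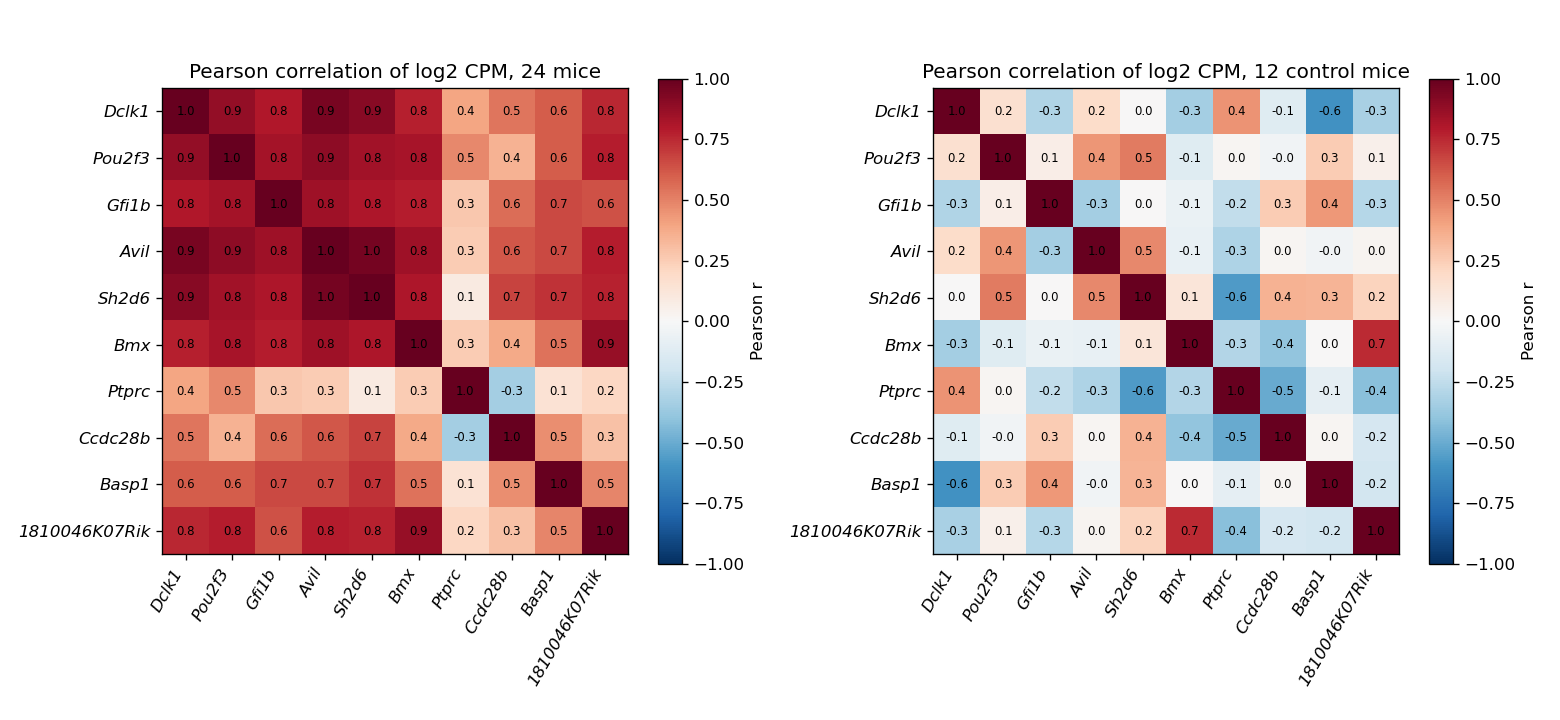
Pearson correlation of log2 CPM between each pair of the 10 genes, over all 24 mice on the left and over the 12 control mice on the right, from −1 in blue to 1 in red. The block of *Dclk1*, *Pou2f3*, *Gfi1b*, *Avil*, *Sh2d6* and *Bmx* is dark red on the left, at 0.77 to 0.96, and mixed on the right, at −0.34 to 0.52.

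Over the 24 mice *Dclk1*, *Pou2f3*, *Gfi1b*, *Avil*, *Sh2d6* and *Bmx* varied together. Their 15 pairs had Pearson correlations of log2 CPM from 0.77 to 0.96, the highest between *Avil* and *Sh2d6*. The points share the treatment groups and the depth of each library. Within the 12 controls the same 15 pairs ran from −0.34 to 0.52, with a median near 0, while within the 12 succinate-treated mice, which hold both sexes and genotypes, they ran from 0.86 to 0.98 with a median of 0.94. *1810046K07Rik* had 0.64 to 0.87 with these 6, *Basp1* 0.55 to 0.72, *Ccdc28b* 0.35 to 0.68 and *Ptprc* 0.09 to 0.48.

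Of 15506 genes with a mean of at least 1 CPM, those most like *Pou2f3* over the 24 libraries included *Alox5* (Pearson 0.97), *Siglecf* (0.96), *Rgs13* (0.95), *Gsdmcl2* (0.92), *Colca2* (0.91), *Kctd15* (0.91) and *St3gal6* (0.90). *Alox5* encodes the lipoxygenase that starts leukotriene synthesis and *Rgs13* a regulator of G-protein signalling. *Gsdmcl2* belongs to the gasdermin family, and *Colca2* is the older symbol of *Pou2af3*, whose protein OCA-T2 is a further coactivator of POU2F3. Among the other members *Avil* ranked 13th, *Dclk1* 18th, *Sh2d6* 36th, *Gfi1b* 42nd, *Bmx* 53rd, *1810046K07Rik* 112th, *Basp1* 1130th, *Ptprc* 2485th and *Ccdc28b* 3983rd in this order. *Colca2* was between 4.20 and 9.67 CPM in the 6 succinate-treated females and between 1.14 and 3.64 CPM in the 12 controls. Its log2 fold change averaged over the groups was 0.96 (SE 0.21, edgeR adjusted p = 0.0298), just under the 2-fold limit.

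**Figure D4:**
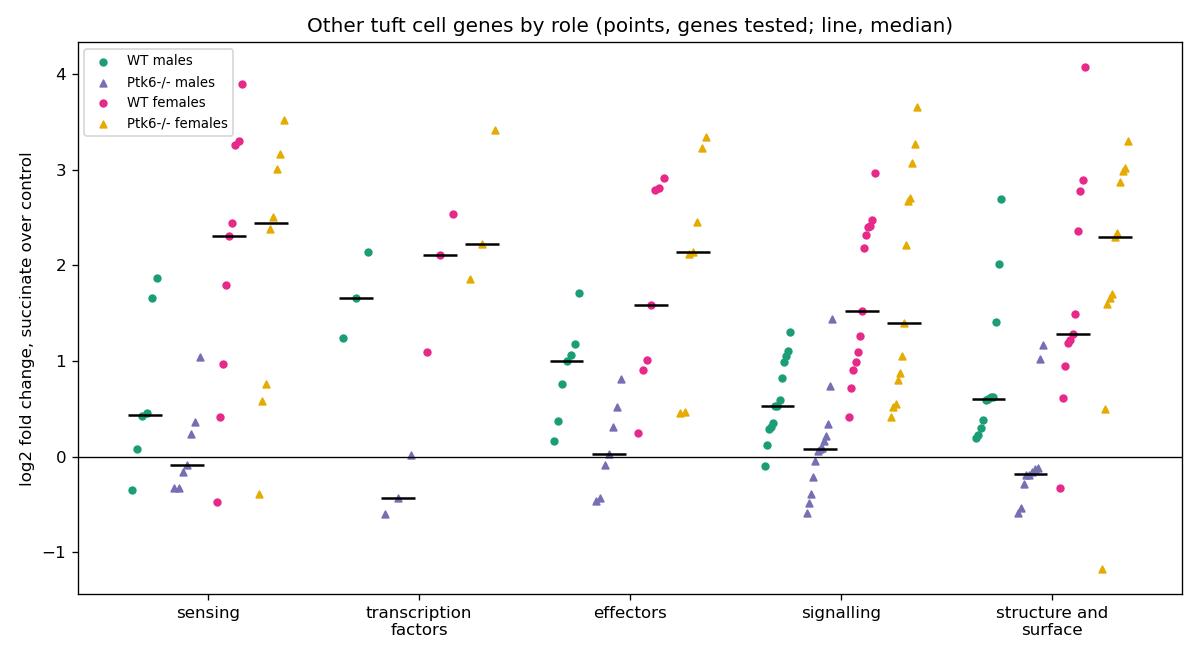
Log2 fold change of succinate over control for the other tuft cell genes tested, by role, in wild type males, Ptk6-/- males, wild type females and Ptk6-/- females. Points are genes and black lines medians, and in each of the 5 roles the medians of both female groups lie above those of both male groups.

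The wider tuft cell programme was read from 44 further genes listed from general knowledge, but with earlier results of these data known. The list is therefore not independent of the data. For succinate averaged over the groups, 19 of 44 were called, all higher, beside 158 of all 21694 genes tested (0.728%), the share to set beside each count by role that follows. *Gnb3* and *Il25* had no count in every library of at least 1 group and gave no usable fold change, and the other 42 had a median log2 fold change of 1.29, from −0.33 for *Tas1r3* to 2.39 for *Ly6g6d*. The further genes named here were chosen after their values were seen. Of the 9 sensing genes 3 were called: *Sucnr1*, the succinate receptor (log2 1.75, SE 0.38), *Ffar3*, a short-chain fatty acid receptor (1.94, SE 0.34), and *Trpm5*, the cation channel of taste signalling (1.56, SE 0.20). All 3 transcription factors were called, *Spib*, *Hmx2* and *Hmx3*. Of 8 effectors 3 were called, *Il17rb*, *Alox5* and *Alox5ap*. Of 13 signalling genes 6 were called, among them *Matk* (log2 2.18, SE 0.30). Of 11 genes of structure and surface 4 were called, among them *Siglecf* (log2 1.78, SE 0.29), while *Espn*, which encodes the actin bundler espin, was at −0.05 (SE 0.22). *Tas1r3*, the lowest, encodes a taste receptor subunit and had an SE of 0.25.
Within groups, 41 of 43 tested genes were higher in wild type females (median log2 1.59), 40 of 42 in Ptk6-/- females (2.21), 38 of 40 in wild type males (0.61) and 18 of 40 in Ptk6-/- males (−0.09). EdgeR called 2 of them, *Alox5* and *Rgs13*, in Ptk6-/- females, where 0.0879% of all genes were called, and 0 in the other 3 groups, where 0% were.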

How the data were processed

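Poly(A) RNA of 24 mice was sequenced from stranded libraries. Following the study's methods, reads were trimmed with Cutadapt, aligned with HISAT2 and assembled with StringTie, and the submitters' processing notes name the build GRCm39. The authors deposited raw gene counts and FPKM values from ballgown. The read counter and annotation release were not given in the sources used here. Groups came from the sample labels.

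A gene entered a comparison when 3 or more of its libraries held at least 10 counts, and was tested with edgeR 4.0.16 (quasi-likelihood, TMM) in R 4.3.3, with Benjamini-Hochberg adjustment over all of them, and the procedure was tested on simulated data. Alternatives used DESeq2 1.42.0, limma 3.58.1 (voom, or log2 FPKM plus 1 or 0.1), other filters and scalings, and left out each library. Depth ranged from 8080320 to 52824700 counts, and intervals cover 95%. The genes named beyond the 10 were from the 8 most correlated with *Pou2f3* (log2 CPM, prior count 2) and the lowest and highest of a list, while further genes of a list were picked with their values in view. The 10 genes and all lists were chosen with earlier results of these data known. Some genes covered by these rules are not reported here.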

Additional observations from a re-analysis of the deposited data

Results flagged for a closer look

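The log2 fold changes of *Ptprc* under succinate in Ptk6-/- mice were −0.49 (SE 0.33) in males and 0.29 (SE 0.33) in females, and neither passed the test. On the log2 scale every treated male lay below the mean of the male controls and every treated female above that of the female controls, and the difference between the responses was 0.786 on the log2 scale (SE 0.50, edgeR adjusted p = 0.757), which did not pass the test. Without the 18S-rich male library the difference was 0.48 (SE 0.42), and with voom the female value was −0.067, so the opposite directions depend on the method. Averaged over the genotypes, the response to succinate was larger in females than in males by 2.13 for *Dclk1* (SE 0.39) and by 2.38 for *Avil* (SE 0.41), each with an edgeR adjusted p of 0.0383. This comparison was chosen after the values of the separate genotypes had been seen, and without the 3 libraries that stood apart the adjusted p-values were 0.175 and 0.168.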

How the results depend on the processing

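Over the 5 succinate comparisons, 991 of 1025 alternative log2 fold changes of the 10 genes kept their direction. Of their 90 genotype and interaction values, 33 took another direction in at least 1 alternative (127 of 1952 alternatives). The number of the 10 genes called for succinate in wild type males was 1 with DESeq2 and 2 with voom, and 0 to 1 when single libraries were left out. In wild type females it was 6 with DESeq2, 3 with all 24 libraries in 1 fit and 3 with voom, and 0 to 4 on leaving out single libraries. In Ptk6-/- females it was 7 with DESeq2, 4 with all 24 libraries in 1 fit, 5 with voom and 2 with limma on log2(FPKM + 0.1), and 0 to 2 on leaving out single libraries. For the average it was 2 with at least 10 counts in every library, a filter that left 5 of the 10 to be tested and removed *Dclk1*, *Pou2f3*, *Gfi1b*, *Bmx* and *1810046K07Rik*, and 2 with limma on log2(FPKM + 1), and 6 to 6 on leaving out single libraries. With limma on log2(FPKM + 1), *Pou2f3* (0.739, adjusted p = 0.00118) and *Bmx* (0.828, adjusted p = 0.00337) passed the adjusted p and missed the fold limit. The FPKM fits took only genes with a mean of at least 0.5 FPKM, so *Dclk1* and *Gfi1b* were not tested for the average there. The sex by succinate interaction in Ptk6-/- mice gave 4 with DESeq2 and 1 with limma on log2(FPKM + 1), and that averaged over the genotypes gave 0 without the 3 libraries that stood apart. Leaving out single libraries gave 0 to 1 for genotype in control females and for the sex by succinate interaction in wild type mice.

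Pairing of same-numbered replicates was not seen by the rule used. In no comparison were all 3 correlations of their deviations over 0.1 (they ran from −0.356 to 0.234). With deviations from means of 3 mice, this check cannot decide whether replicates were paired. With the replicate number as a block, 0 of the 10 genes were called in Ptk6-/- females, 0 also with a length offset and the replicate block.

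Reversed directions were mostly those of Ptk6-/- males. With the replicate block *Pou2f3* was at −0.10 and *Avil* at −0.061, and with the length offset and the block *Pou2f3* was at −0.094, *Avil* at −0.047 and *Sh2d6* at −0.091. Limma on log2(FPKM + 1) gave −0.24 for *Avil*, −0.29 for *Sh2d6* and −0.48 for *Basp1*, and limma on log2(FPKM + 0.1) gave −0.67, −0.61 and −0.60. Voom gave 0.23 for *Bmx*, −0.12 for *Basp1* and 0.062 for *1810046K07Rik*, and leaving out the 3 libraries gave 0.22, −0.091 and 0.053. Leaving out single libraries gave −0.79 to 0.053 for *1810046K07Rik*, −0.49 to 0.45 for *Avil*, −0.091 to 0.33 for *Basp1*, −1.06 to 0.22 for *Bmx*, −0.70 to 0.46 for *Pou2f3* and −0.61 to 0.65 for *Sh2d6*. In wild type males it gave −0.17 to 0.31 for *Basp1* and −0.13 to 0.42 for *Ptprc*, and for *Ptprc* −0.0074 to 0.34 in wild type females and −0.0256 to 0.12 in the average. Voom gave −0.067 for *Ptprc* in Ptk6-/- females and −0.029 in the average. The cause was not tested. In the shallowest library 3 counts equal 0.823 CPM, which limits *Pou2f3*, *Gfi1b* and *Bmx* there.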
